A study of Homo sapiens with 60 samples.

Results

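SW1783 cells come from a human astrocytoma, a tumour of the glial lineage, and were bought as an established line from a public cell bank. The libraries described here are those of SW1783 cells that received only the vehicle, dimethyl sulfoxide (DMSO), for 24 h, and they were chosen by their sample labels, not by any measured value. They are 3 of the 60 libraries, in 25 groups, of a study in which all other groups received a water or ethanol extract of a herbal medicine at a high, medium or low dose. A wortmannin control named in the design text was not analysed here. The labels give the vehicle as 0.1% DMSO and the design text of the series gives 2% DMSO, so the concentration cannot be stated with certainty. All cells were kept in Leibovitz's L-15, a medium that supplies galactose in place of glucose, with fetal bovine serum, penicillin and streptomycin. No untreated cells and no normal astrocytes were analysed here, so the values describe a single tumour line under vehicle and serum. The sources do not say whether the 3 libraries came from cultures grown and treated separately, and the SD between them may be technical.

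Astrocytes are the glial cells that clear glutamate, buffer potassium and supply neurons with metabolites. They are usually recognised by the intermediate filament protein GFAP, the water channel AQP4, the folate enzyme ALDH1L1 and the glutamate transporters SLC1A2 and SLC1A3. Tumours of the astrocyte lineage can keep this programme, resemble neural or oligodendrocyte progenitors, or take on a mesenchymal programme with CD44, vimentin and extracellular matrix genes.

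Levels between genes were compared in TPM, a length-corrected unit in which the counts of a gene are divided by the length of its exons and scaled to a total of 1000000 in each library. Shares of a library are given in CPM, which is scaled to the same total and not corrected for length. A gene was called expressed when it reached 1 TPM in each of the 3 libraries. Values are means ± SD over the 3 libraries, and where 3 values are given they are those of replicates 1, 2 and 3. The question asked of the data is which glial, mesenchymal, matrix, receptor, cytokine and metabolic genes this line expresses and which it lacks. With a single group there is no contrast and no test.

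The 3 libraries held 20.2, 20.5 and 18.7 M counts, against 18.7 to 35.5 M over the whole series. Their log2 CPM values correlated pairwise with Pearson's r from 0.996 to 0.997 across the 14575 genes kept by a filter on low counts. Genes are not independent replicates. The counts of each pair differed by more than sampling noise (chi-square per degree of freedom from 2.72 to 5.16 over 16829 to 16928 genes), so none is a copy of another. At this depth 3 counts in a library correspond to 0.0294 TPM for FN1, with a long exonic length, and to 0.46 TPM for MIF, with a short one. That is the level that a count of 0 still allows, and it covers counting error only.

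Of 19693 protein-coding genes 11810 were expressed (60.0%), and 3482 had 0 counts in all 3 libraries (17.7%). The counts of each list of protein-coding genes below are to be read against these shares. A share near them does not set a list apart. Taken library by library, 12025, 12002 and 12031 protein-coding genes reached 1 TPM. The median over all protein-coding genes was 4.99 TPM. By mean level, 7038 genes lay between 10 and 100 TPM, 1095 between 100 and 1000 TPM and 55 at 1000 TPM or more.

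**Figure D1:**
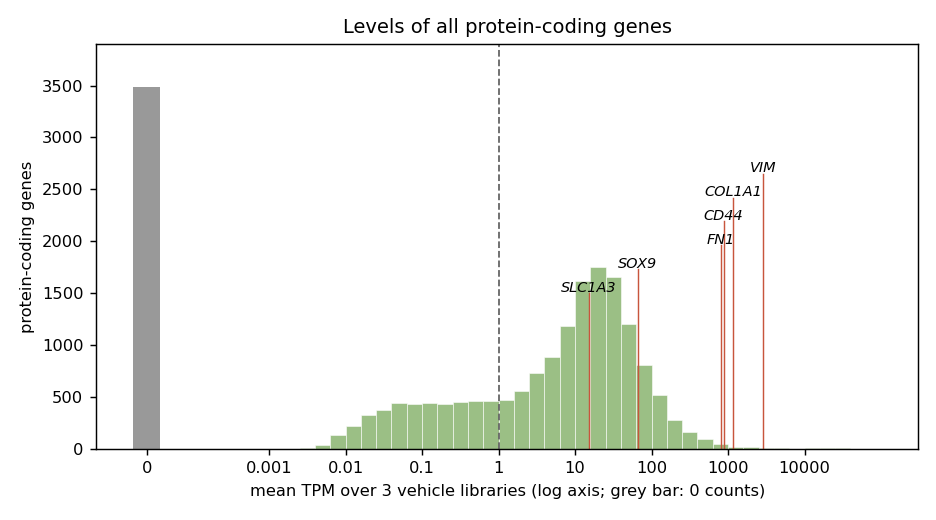
Number of protein-coding genes by mean TPM over the 3 vehicle libraries, on a log axis. The grey bar holds the 3482 genes with 0 counts, the dashed line marks 1 TPM, and the red lines mark 6 marker genes, from SLC1A3 at 15.3 TPM to VIM at 2875 TPM.

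The 100 highest genes held 27.2 ± 0.0609% of the counts of a library, and mitochondrially encoded genes 11.8 ± 0.159%. By CPM the highest gene was MT-CO1, a subunit of cytochrome c oxidase, at 23785, 23588 and 23720.0 CPM. Of the 20 highest genes by CPM 10 were mitochondrially encoded: MT-CO1, MT-ND4, the ribosomal RNA MT-RNR2, MT-CO2, MT-CO3, MT-ATP6, MT-CYB, MT-ND1, MT-ND2 and MT-ND5. The nuclear genes among the 20 fell into a few kinds. Cytoskeleton genes were ACTB (8727 ± 346 CPM) and ACTG1 (3542 ± 118 CPM), which encode the cytoplasmic actins, FLNA (4526 ± 101 CPM), an actin crosslinker, and VIM (4709 ± 22.8 CPM). Matrix genes were TGFBI (4562 ± 254 CPM), FN1 (4427 ± 294 CPM) and COL1A1 (3633 ± 108 CPM). The elongation factor EEF1A1 (4815 ± 110.0 CPM), the glycolytic enzyme GAPDH (3917 ± 159 CPM) and PAICS (3403 ± 59.6 CPM), an enzyme of purine synthesis, made up the rest.

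On the length-corrected scale the 20 highest nuclear genes began with ACTB (7809.7 TPM), the ferritin light chain FTL (4574 TPM), GAPDH (4138 TPM) and ACTG1 (3727 TPM). The thymosins TMSB10 (3689 TPM) and TMSB4X (2467 TPM), which bind actin monomers, were among them. So were S100A6 (2227 TPM), a calcium-binding protein, IGFBP7 (2225 TPM), a secreted binding protein, and the galectin LGALS1 (1847 TPM). IGFBP7, LGALS1 and TGFBI, which encode secreted proteins, were among these 20 genes, and no gene of the astrocyte list was present.

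All 6 genes named as markers of these cells were expressed, over a range of more than 100-fold in TPM. VIM, the intermediate filament protein vimentin (chromosome 10, 17228259 to 17237593, plus strand, GRCh38 with GENCODE 29), stood at 2873, 2854 and 2899 TPM and ranked 20 among protein-coding genes. COL1A1, the alpha-1 chain of type I collagen (chromosome 17, 50183289 to 50201632, minus strand), stood at 1185, 1173 and 1139 TPM, rank 50. CD44, the hyaluronan receptor (chromosome 11, 35138870 to 35232402, plus strand), stood at 832, 881 and 903 TPM, rank 66. These TPM values did not overlap between the genes in any library, so their order on this scale was the same in all 3. FN1, which encodes fibronectin (chromosome 2, 215360440 to 215436172, minus strand), stood at 739, 830.4 and 847 TPM, rank 75, with replicate 1 lowest. In replicates 1, 2 and 3 alike FN1 lay below CD44 in TPM, although the highest FN1 value lay above the lowest CD44 value. By CPM, which is not corrected for length, FN1 (4427 CPM) lay above COL1A1 (3633 CPM) and CD44 (2770 CPM). The order of these genes thus depends on the length correction.

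The markers of the 6 that belong to the astrocyte list lay lower. SOX9, a transcription factor of glial and cartilage progenitors (chromosome 17, 72121020 to 72126420, plus strand), stood at 60.0, 66.8 and 71.1 TPM, rank 1873. SLC1A3, the glutamate transporter GLAST (chromosome 5, 36606355 to 36688334, plus strand), stood at 15.7, 15.2 and 14.9 TPM, rank 6691. The mean of SLC1A3 was 15.3 ± 0.391 TPM, a little below the median of 18.9 TPM over the 11810 expressed protein-coding genes, and all 3 values of SOX9 lay above that median. Of the 6 markers, only these 2 genes belong to the astrocyte list described below. The classical astrocyte markers GFAP, AQP4, ALDH1L1, S100B and SLC1A2 all lay below 1 TPM.

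**Figure D2:**
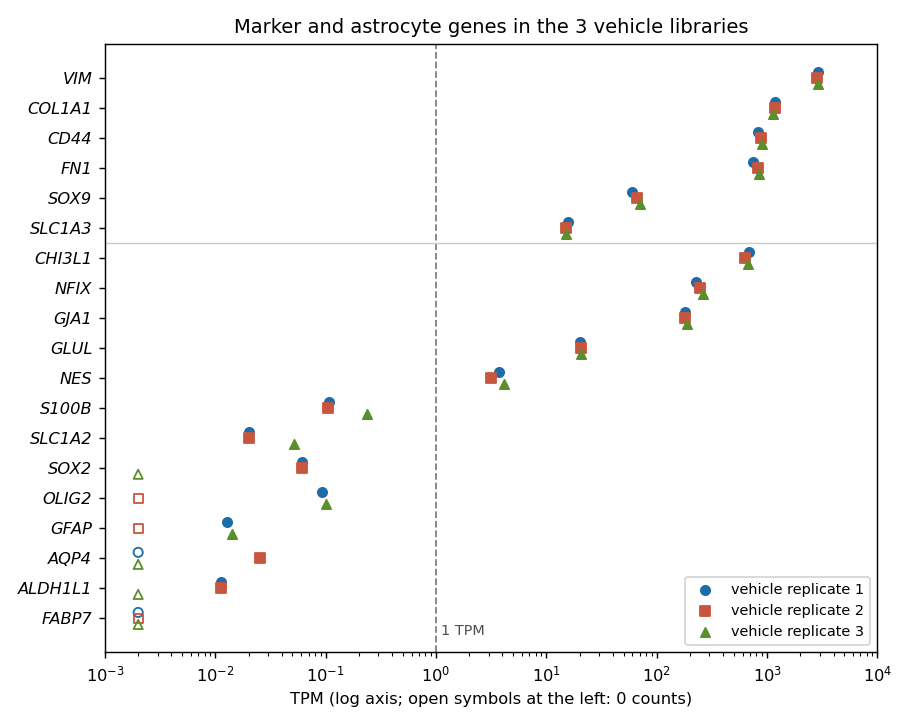
TPM of the 6 given markers (above the grey line) and of 13 other glial, stem and astrocyte genes in each vehicle library, on a log axis, with open symbols for 0 counts and a dashed line at 1 TPM. VIM, COL1A1, CD44 and FN1 sit far to the right, while GFAP, AQP4, ALDH1L1, SLC1A2, S100B, SOX2 and OLIG2 lie below 1 TPM in every library and FABP7 is at 0.

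Of 32 astrocyte genes 13 were expressed (40.6%, against 60.0% of all protein-coding genes), with a list median of 0.12 TPM. GFAP had 2 counts summed over the 3 libraries (0.0128, 0 and 0.014 TPM), AQP4 1 count and ALDH1L1 2 counts. S100B, the calcium-binding protein after which astrocytes are often stained, had 4 counts, and SLC1A2, the main glutamate transporter of mature astrocytes, had 13 (0.0203, 0.0201 and 0.0521 TPM). The gap junction gene GJB6, the fatty acid binding protein FABP7, MLC1 and the metallothionein MT3 had 0 counts in every library, which allows up to 0.155, 0.187, 0.119 and 0.278 TPM, and NTSR2 had 0 as well. These genes were at or near the limit of the depth in all 3 libraries.

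The astrocyte genes that were expressed are also active outside astrocytes. CHI3L1, a secreted glycoprotein of reactive astrocytes and of mesenchymal cells, led with 663 ± 34.5 TPM. NFIX, a nuclear factor I protein, followed at 244 ± 16.6 TPM, and its relatives NFIB (3.07 TPM) and NFIA (2.18 TPM), which drive astrocyte differentiation, lay far lower. GJA1, the gap junction protein connexin 43, stood at 183 ± 5.76 TPM. The protease inhibitor CST3 (89.8 ± 5.91 TPM), SOX9 and the chaperone CLU (49.6 ± 1.6 TPM) completed the 6 highest. Glutamine synthetase, GLUL, which turns the glutamate taken up by astrocytes into glutamine, stood at 20.0, 20.4 and 20.4 TPM, and its 3 values were nearly equal. The lipid carrier APOE was at 2.08 ± 0.145 TPM and aldolase C, ALDOC, at 7.08 ± 0.395 TPM.

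Of 25 neural stem and progenitor genes 13 were expressed (52%, against 60.0% of all protein-coding genes). The core stem cell factor SOX2 had 2 counts in all, its relatives SOX1 and SOX3 had 0 and 2, and the Notch target HES5 had 0, which allows up to 0.179 and 0.39 TPM for SOX1 and HES5. PROM1, which encodes the stem cell surface protein CD133, had 1 count. By mean level 7 genes of the list reached 10 TPM, and 1 of them, not named here, reached 100 TPM. Below that gene, the higher ones included NOTCH2 (84.3 ± 8.89 TPM), SOX4 (52.5 ± 3.29 TPM), the Notch target HES1 (48.9 ± 3.7 TPM), the Polycomb gene BMI1 (48.5 ± 1.42 TPM) and NOTCH1 (20.3 ± 0.581 TPM). Nestin, NES, the filament protein of neural progenitors, was low but present at 3.7, 3.14 and 4.13 TPM.

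Of 16 oligodendrocyte lineage genes 6 were expressed (37.5%, against 60.0% of all protein-coding genes). The lineage factors were not among them: OLIG2 had 4 counts, OLIG1 0 and SOX10 under 1 expected count over the 3 libraries. The myelin genes MOG and MAG had 0 counts, which allows up to 0.224, 0.16 and 0.172 TPM for OLIG1, MOG and MAG. The proteoglycan CSPG4 (NG2), shared by progenitors and pericytes, stood at 66.4 ± 1.13 TPM, CNP at 55.5 ± 3.53 TPM, the tight junction gene CLDN11 at 21.1 ± 1.58 TPM, MYRF at 8.38 ± 0.437 TPM, PDGFRA at 5.95 ± 0.174 TPM and MBP at 1.07 ± 0.0413 TPM.

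Of 20 neuronal genes 7 were expressed (35%, against 60.0% of all protein-coding genes). They were the beta-tubulin TUBB3 (71.1 ± 3.15 TPM), the enolase ENO2 (46.3 ± 0.223 TPM), the synaptic vesicle fusion genes SNAP25 (25.9 ± 0.964 TPM) and SYT1 (12.5 ± 1.06 TPM), the scaffold DLG4 (10.2 ± 0.322 TPM), the neurofilament NEFL (2.22 ± 0.118 TPM) and MAP2 (1.81 ± 0.238 TPM). The neuronal migration gene DCX, the vesicular transporters SLC17A6 and SLC32A1 and the RNA-binding protein ELAVL4 had 0 counts, which allows up to 0.05, 0.104, 0.198 and 0.0732 TPM. SNAP25 and SYT1 were thus present without these genes that define neurons.

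Markers of other brain cells were mostly missing. Of 15 microglia and leukocyte genes 7 had 0 counts, among them AIF1, P2RY12, TYROBP and SPI1 (up to 0.4, 0.274, 0.562 and 0.246 TPM). Of the list 3 were expressed (20%, against 60.0% of all protein-coding genes). They were CD68 (276 ± 15.5 TPM), a lysosomal protein, PTPRC, the leukocyte phosphatase CD45 (2.9, 3.33 and 3.45 TPM), and CSF1R, the receptor of macrophage growth factor (2.19, 2.17 and 1.88 TPM). Exons annotated to another gene on the same strand cover 81.7% of the exonic length of CD68, so its value is uncertain. Of 12 endothelial genes 2 were expressed (16.7%, against 60.0% of all protein-coding genes). They were the VEGF receptor KDR (15.4 ± 1.25 TPM) and EGFL7 (9.75 ± 0.571 TPM). The defining junction genes CDH5 and CLDN5 stood at 0.0178 and 0.0615 TPM, and SOX17 had 0 counts (up to 0.218 TPM).

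Of 15 epithelial genes 5 were expressed (33.3%, against 60.0% of all protein-coding genes). E-cadherin, CDH1, and the epithelial factor GRHL2 had 0 counts in every library (up to 0.0825 and 0.0841 TPM), and EPCAM and the splicing factor ESRP1 lay at 0.0406 and 0.0105 TPM. The keratins of simple epithelia did not follow them: KRT7 stood at 475, 450.0 and 461 TPM and KRT18 at 112, 109 and 104 TPM. Their usual partner KRT8 was lower at 6.94 ± 0.287 TPM, and KRT19 lay at 0.158 TPM. The 3 values of KRT7 lay above those of KRT18, and those of KRT18 above those of KRT8, in every library.

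Among 21 intermediate filament genes VIM was the highest, and 12 were expressed (57.1%, close to the 60.0% of all protein-coding genes). KRT7, the lamin LMNA (214 ± 2.06 TPM), the hair keratin KRT81 (169.6 ± 6.37 TPM), KRT18 and the lamin LMNB2 (104 ± 2.94 TPM) followed. Some reads of KRT81 match several genes, as its expected counts were not whole, and its value is uncertain against its near copies. Of the neural filaments NES and NEFL were expressed at a low level. The others were not, namely the neurofilaments NEFM (0.0745 TPM) and NEFH (0.0572 TPM), peripherin, PRPH (0.187 TPM), GFAP, and INA with 0 counts (up to 0.158 TPM). Desmin, DES, the filament of muscle, stood at 0.0667 TPM.

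Fibroblast and mesenchymal genes were expressed almost throughout: 20 of 21 (95.2%, against 60.0% of all protein-coding genes), with a median of 42.9 TPM. The members of this list were chosen with earlier results of these data known, so the share is a description. The highest were S100A6 (2669, 2108 and 1904 TPM), the matrix protein SPARC (1503 ± 62 TPM), COL1A1, FN1, COL1A2 (483 ± 10.1 TPM) and the surface glycoprotein THY1 (261 ± 10.1 TPM). The transcription factors that drive a mesenchymal state were present together. SNAI2 stood at 77.8 ± 0.615 TPM, SNAI1 at 46.7 ± 2.04 TPM, TWIST1 at 42.9 ± 2 TPM, PRRX1 at 41.9 ± 0.953 TPM, TWIST2 at 29 ± 1.26 TPM and ZEB1 at 26.5 ± 1.38 TPM, with ZEB2 lower at 1.86 ± 0.133 TPM. Only TCF21, a factor of resident fibroblasts, was not expressed (0.0586 TPM). Decorin, DCN, a proteoglycan that is abundant in fibroblasts, was low at 2.24 ± 0.237 TPM.

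Of 14 pericyte and smooth muscle genes 11 were expressed (78.6%). The aminopeptidase ANPEP led with 778 ± 5.24 TPM, followed by the contractile genes MYL9 (252 ± 12.3 TPM), TAGLN (213 ± 10.1 TPM), CALD1 (139 ± 5.94 TPM) and ACTA2 (100.0 ± 5.05 TPM) and by PDGFRB (31.8 ± 0.271 TPM). Genes that mark mature smooth muscle were near the bottom, with the myosin MYH11 at 0.163 TPM and desmin as above, and the pericyte gene RGS5 stood at 1.38, 0.957 and 1.5 TPM, not at 1 TPM in every library. In these bulk libraries a few cells with a high level and many cells with a low level of a gene cannot be told apart.

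Gene lists drawn up for the glioma subtypes differed in how many members were expressed. All 26 mesenchymal glioma genes were expressed, with a median of 218 TPM, and 17 of them reached 100 TPM. VIM, LGALS1 (2062, 1858 and 1620.5 TPM), TGFBI (1908, 1868 and 1743 TPM), the metalloprotease inhibitor TIMP1 (1682, 1674 and 1473 TPM) and CD44 were among the highest. The transcription factors of this list lay between 16 TPM for RELB and 519.8 TPM for FOSL1, with STAT3 at 72.8 ± 1.42, CEBPB at 69.8 ± 4.05 and RUNX1 at 28.9 ± 2.18 TPM. Of 18 proneural glioma genes 4 were expressed (22.2%), with a median of 0.0638 TPM: NCAM1 (11.5 ± 0.789 TPM), TCF4 (6.11 ± 0.548 TPM), PDGFRA and MAP2. DLL3, BCAN, NCAN and PTPRZ1, which are typical of proneural tumours, stood at 0.0216, 0.063, 0.00746 and 0.00515 TPM. The members of both lists were chosen from textbook knowledge with earlier results of these data known, so the contrast between them is a description.

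**Figure D3:**
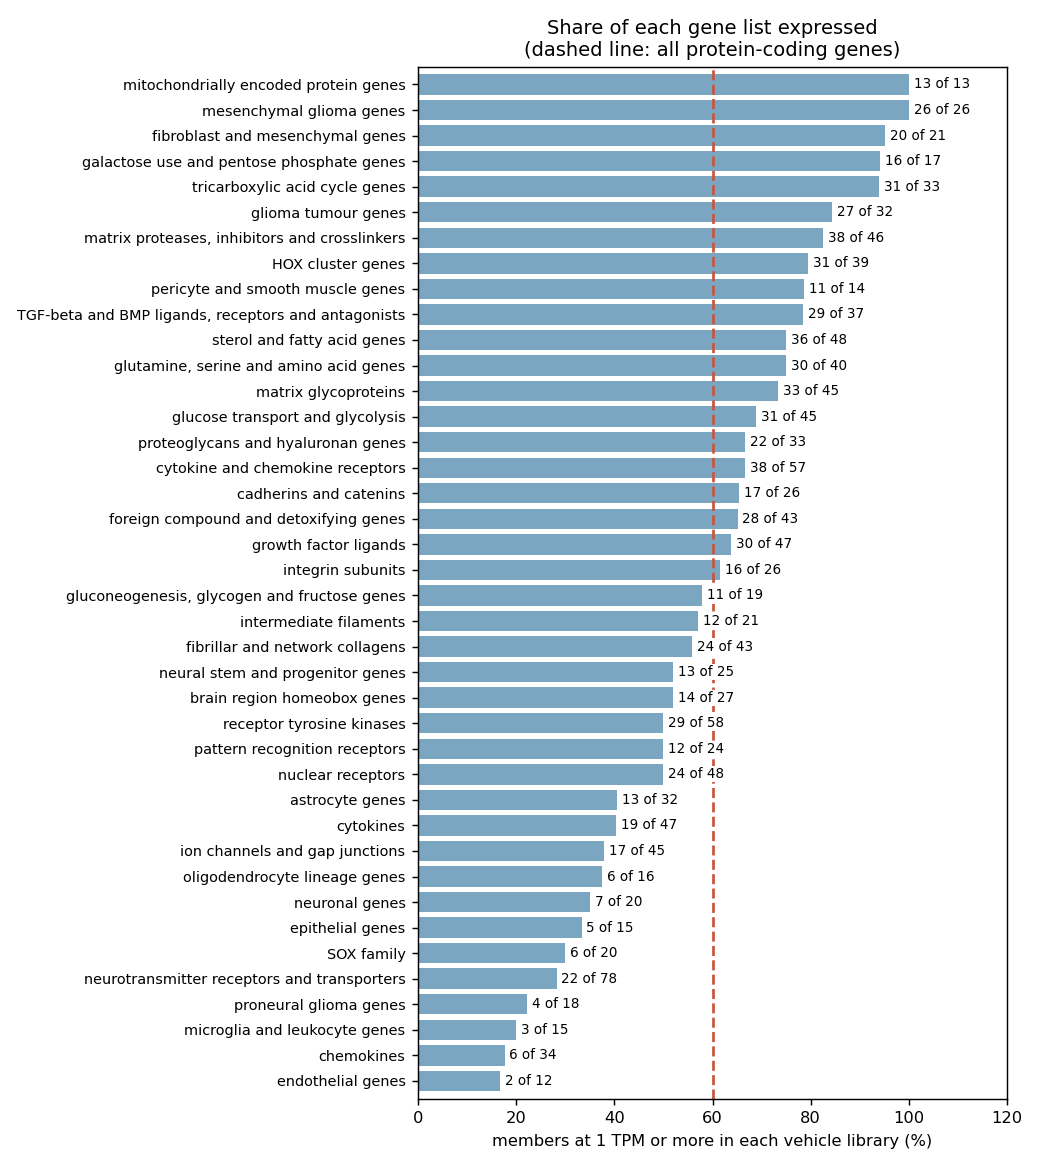
Share of the members of each of 40 gene lists that reached 1 TPM in each vehicle library, with the number expressed beside each bar and the share over all protein-coding genes (60.0%) as a dashed line. The mesenchymal lists stand near the top, and the endothelial, chemokine, leukocyte and proneural lists at the bottom. The lists were drawn up with earlier results of these data known.

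The collagen genes spread over a wide range of levels, with a median of 4.01 TPM. By mean level 7 of them reached 100 TPM, 17 reached 10 TPM and 12 lay below 0.1 TPM. Of 43 collagen chain genes 24 were expressed (55.8%, close to the 60.0% of all protein-coding genes) and 5 had 0 counts. COL1A1 was the highest, followed by COL6A1 (896 ± 28.2 TPM), COL5A1 (633 ± 11.6 TPM), COL6A2 (559 ± 29.7 TPM), COL1A2 and COL5A2 (121 ± 3 TPM). Chains that assemble with each other were not at equal levels. COL1A1 exceeded COL1A2, with which it forms type I collagen, in every library (1185, 1173 and 1139 against 495, 477 and 478 TPM). COL6A3, the long chain of type VI collagen, was at 28.4, 29.1 and 29 TPM, below COL6A1 and COL6A2 in every library. COL3A1, which accompanies type I collagen in most connective tissue, was low at 14.8, 14.9 and 15 TPM. The basement membrane chains COL4A2 (110.4 ± 1.86 TPM) and COL4A1 (65.3 ± 1.19 TPM) exceeded COL4A5 (33.3 ± 0.716 TPM) and COL4A6 (27.8 ± 1.38 TPM), and COL4A3 and COL4A4 lay below 1 TPM. Of the collagens of cartilage COL2A1 lay at 0.017 TPM and COL9A1 had 0 counts (up to 0.0704 TPM), while COL11A1 (9.45 ± 0.427 TPM) and COL27A1 (3.25 ± 0.0381 TPM) were expressed. COL20A1, COL22A1 and COL23A1 had 0 counts as well (up to 0.0465, 0.0651 and 0.135 TPM).

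Of 45 matrix glycoprotein genes 33 were expressed (73.3%), with a median of 33.3 TPM. TGFBI, which links collagen to integrins, SPARC, FN1, the thrombospondin THBS1 (644 ± 51.2 TPM), CCN1 (592 ± 10.3 TPM) and the laminin chain LAMC1 (265 ± 12.9 TPM) were the highest. Tenascin-C, TNC, a glycoprotein abundant in glioma matrix, stood at 246 ± 7.75 TPM, and tenascin-R, TNR, which is made in brain, at 0.00437 TPM. The laminin chains LAMA4 (77.2 ± 3.27 TPM), LAMA5 (39.1 ± 0.834 TPM), LAMB1 (236 ± 8.29 TPM) and LAMB2 (53 ± 1.97 TPM) were well expressed, LAMA1 (4.2 TPM) and LAMA3 (2.58 TPM) were low, and LAMA2 (0.337 TPM) was not expressed. TNN had 0 counts (up to 0.102 TPM).

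Of 33 proteoglycan and hyaluronan genes 22 were expressed (66.7%, against 60.0% of all protein-coding genes). After CD44 came SPOCK1 (405 ± 20.8 TPM), the syndecan SDC4 (223 ± 9.51 TPM), versican, VCAN (134 ± 15.1 TPM), the glypican GPC1 (119 ± 4.61 TPM) and SRGN (111 ± 6.26 TPM). The hyaluronan synthases were HAS2 (37.7 ± 2.85 TPM) and HAS3 (13.6 ± 0.861 TPM), with HAS1 at 0.0713 TPM. Versican was the member of its family that was present: the brain proteoglycans BCAN and NCAN and the cartilage proteoglycan ACAN lay at 0.063, 0.00746 and 0.0146 TPM. GPC3 had 0 counts (up to 0.188 TPM).

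Of 46 genes for matrix proteases, their inhibitors and collagen crosslinking 38 were expressed (82.6%), with a median of 34.2 TPM. TIMP1, the membrane protease MMP14 (619 ± 19.1 TPM), the lysyl oxidase LOXL2 (611 ± 13.7 TPM), TIMP2 (374 ± 4.12 TPM) and the lysyl hydroxylase PLOD1 (353 ± 2.71 TPM) were among the highest. The protease activated by MMP14, MMP2, stood at 270.3 ± 3.58 TPM. The secreted collagenase MMP1 was at 47.4 ± 1.14 TPM, stromelysin MMP3 at 16.6 ± 1.56 TPM and the gelatinase MMP9 at 0.946 ± 0.385 TPM, just under the threshold. MMP8, the neutrophil collagenase, had 0 counts (up to 0.148 TPM), and MMP13, MMP7 and P4HA3 lay at 0.131, 0.252 and 0.209 TPM.

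Of 26 integrin subunits 16 were expressed (61.5%, close to the 60.0% of all protein-coding genes). ITGB1 (857 ± 23.7 TPM), the common beta chain, was accompanied by ITGA5 (513 ± 18.9 TPM), its partner in the fibronectin receptor, and by ITGA3 (480.0 ± 5.51 TPM), its partner in a laminin receptor. ITGA2 (89.5 ± 7.43 TPM), ITGAV (58.9 ± 5.17 TPM) and ITGB5 (46.2 ± 1.36 TPM) followed. ITGA8 and the leukocyte chain ITGAL had 0 counts (up to 0.0677 and 0.0788 TPM), and the leukocyte chains ITGAM, ITGAX and ITGAD stood at 0.0552, 0.0586 and 0.0116 TPM. The leukocyte beta chain ITGB2 was at 3.28 ± 0.298 TPM.

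Of 26 cadherin, catenin and adhesion genes 17 were expressed (65.4%, against 60.0% of all protein-coding genes). N-cadherin, CDH2, led with 202, 221 and 213 TPM, against 0 counts for CDH1. ALCAM (204 ± 12.7 TPM), the semaphorin receptor NRP1 (194 ± 10.3 TPM), the catenins CTNNA1 (110.1 ± 2.12 TPM) and CTNNB1 (84.2 ± 4.43 TPM) and the mesenchymal cadherin CDH11 (73.6 ± 1.64 TPM) followed. CDH19 had 0 counts (up to 0.0743 TPM), and the neural adhesion gene CHL1 lay at 0.00869 TPM.

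Of 58 receptor tyrosine kinases 29 were expressed (50%, against 60.0% of all protein-coding genes). AXL, the receptor of GAS6, led with 449, 430.5 and 484 TPM. MET, the receptor of hepatocyte growth factor, stood at 323, 355 and 363 TPM and EPHA2 at 197, 192 and 199.7 TPM. The values of these 3 genes did not overlap in any library. EGFR, the receptor most often amplified in glioblastoma, stood at 76.1, 84.7 and 88.4 TPM, above EPHB4 (63.6 ± 1.68 TPM) and EPHB2 (60.4 ± 1.36 TPM). FGFR1 was the main fibroblast growth factor receptor (47.6 ± 0.979 TPM), with FGFR3 at 2.29, FGFR4 at 0.328 and FGFR2 at 0.0704 TPM. Of the PDGF receptors PDGFRB (31.5, 31.8 and 32 TPM) exceeded PDGFRA (5.75, 6.02 and 6.08 TPM) in every library. ERBB3 and ERBB4, relatives of EGFR, lay at 0.071 and 0.00831 TPM and ERBB2 at 32.8 ± 0.934 TPM. The neurotrophin receptor NTRK2, which astrocytes express, had 0 counts (up to 0.025 TPM), as did FLT3, EPHA6 and EPHA8 (up to 0.123, 0.0811 and 0.0952 TPM).

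Several ligands of these receptors were measured in the same libraries. Of 47 growth factor genes 30 were expressed (63.8%, close to the 60.0% of all protein-coding genes). They were led by VEGFC (115 ± 2.29 TPM), FGF2 (103 ± 8.47 TPM), VEGFB (101 ± 2.36 TPM), GAS6 (94.7 ± 5.92 TPM), VEGFA (58.4 ± 2.17 TPM) and the KIT ligand KITLG (45.6 ± 2.47 TPM). KIT itself stood at 28.9 ± 1.47 TPM and the VEGF receptors KDR, FLT1 and FLT4 at 15.4, 0.0204 and 0.0122 TPM. The ligand of MET, HGF, was low at 4.25 ± 0.359 TPM. Of the EGFR ligands HBEGF (27 ± 0.597 TPM) and TGFA (10.2 ± 0.787 TPM) were expressed, EGF, EREG and BTC lay at 0.363, 0.361 and 0.295 TPM, and AREG had 0 counts, as did NRG3 and FGF9 (up to 0.309, 0.101 and 0.112 TPM). The insulin-like growth factors IGF1 and IGF2 lay at 0.0109 and 0.18 TPM.

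Of 37 genes of the TGF-beta and BMP pathways 29 were expressed (78.4%) and none had 0 counts. TGFB1 (473, 513 and 491 TPM) exceeded TGFB2 (15.7 ± 1.39 TPM) and TGFB3 (10.6 ± 0.936 TPM) in every library. The coreceptor ENG (252 ± 3.6 TPM), the follistatin-like genes FSTL1 (141 ± 0.417 TPM) and FSTL3 (95.7 ± 4.12 TPM), the protease BMP1 (97.5 ± 2.07 TPM) and the latency protein LTBP1 (71.5 ± 2.13 TPM) completed the 6 highest. Both receptor chains were present, TGFBR2 at 51.8 ± 0.67 and TGFBR1 at 35.6 ± 2.12 TPM. Of the ligands named BMP, only BMP4 was expressed (10.3 ± 0.644 TPM), while BMP7, CHRD, ACVRL1 and BMP5 lay at 0.00951, 0.0395, 0.0418 and 0.0689 TPM.

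Most cytokine genes were not expressed. Of 47 cytokine genes 19 were expressed (40.4%, against 60.0% of all protein-coding genes) and 11 had 0 counts. MIF led with 543 ± 60.3 TPM, but exons annotated on the opposite strand cover 61.9% of its exonic length, and whether the counting used strand is not given in the sources used here. CSF1, the growth factor of macrophages, stood at 121, 119.6 and 128 TPM. IL11 (79.3 ± 4.06 TPM), CLCF1 (34.1 ± 1.14 TPM) and LIF (16.2 ± 1.33 TPM), which signal through gp130, and TNFSF12 (15.9 ± 0.544 TPM) followed. IL6, of the same family, was low at 4.56, 4.89 and 5.91 TPM. Of the primary inflammatory cytokines IL1B was low at 4.07 ± 0.394 TPM, and IL1A and TNF lay under the threshold at 0.777 and 0.0307 TPM. IL1RN, OSM, IL2 and IL4 had 0 counts (up to 0.157, 0.241, 0.456 and 0.623 TPM), as did IFNB1 and IFNG.

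Of 34 chemokine genes 6 were expressed (17.6%) and 15 had 0 counts. They were CXCL16 (24 ± 1.15 TPM), the monocyte attractant CCL2 (15.6, 16.6 and 15.4 TPM), CCL26 (11 ± 0.773 TPM), CXCL12 (7.5 ± 0.375 TPM), the neutrophil attractant CXCL8 (3.6, 2.97 and 4.41 TPM) and CCL5 (3.17, 1.82 and 2.02 TPM). CXCL8 and CCL5 varied more between libraries than the other 4, with CXCL8 lowest in replicate 2 and CCL5 highest in replicate 1. CXCL1, CXCL2 and CXCL3 lay at 0.404, 0.774 and 0.403 TPM. CXCL9, CXCL13, CCL1 and CCL3 had 0 counts (up to 0.186, 0.356, 0.861 and 0.341 TPM).

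Of 57 receptor genes of cytokines and chemokines 38 were expressed (66.7%, against 60.0% of all protein-coding genes). TNFRSF12A, the receptor of TNFSF12, led with 344 ± 22 TPM, followed by the TNF receptor TNFRSF1A (201 ± 1.88 TPM) and by IL6ST, the shared gp130 chain (168 ± 14.7 TPM). IL13RA2, a decoy receptor known from gliomas, stood at 117, 126 and 114 TPM and IL13RA1 at 112, 118 and 109.6 TPM. IL13RA2 lay above IL13RA1 in each library, and the ranges of the 2 genes overlapped. OSMR was at 102 ± 4.79 TPM. The receptor chain for IL6 itself, IL6R, lay just under the threshold at 0.91, 0.903 and 0.896 TPM, and that for IL11, IL11RA, at 8.71 ± 0.199 TPM. The receptor genes IL2RA, CSF2RA, CSF2RB and CSF3R, which act in blood cells, had 0 counts (up to 0.129, 0.133, 0.102 and 0.0605 TPM). The CXCL8 receptors CXCR1 and CXCR2 had 0 counts and 0.0175 TPM.

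Of 24 genes of innate sensing 12 were expressed (50%, against 60.0% of all protein-coding genes). The adaptors MAVS (67.7 ± 4.67 TPM), MYD88 (37.6 ± 0.473 TPM), STING1 (30.3 ± 1.02 TPM) and TICAM1 (13.7 ± 0.987 TPM), the TLR4 partner LY96 (28.1 ± 1.44 TPM) and RIGI (9.17 ± 0.975 TPM) led. The lipopolysaccharide receptor TLR4 was at 4.67 ± 0.423 TPM and its coreceptor CD14 at 0.476 TPM. TLR2 lay at 0.00988 TPM and TLR7, TLR8 and TLR10 had 0 counts (up to 0.0979, 0.117 and 0.121 TPM).

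Most neurotransmitter receptors were not expressed. Of 78 receptor and transporter genes 22 were (28.2%), and 18 had 0 counts. The creatine transporter SLC6A8 (65.6 ± 1.98 TPM), the adenosine receptor ADORA2B (34.5 ± 1.8 TPM), the taurine transporter SLC6A6 (32.2 ± 2.21 TPM), the glycine transporter SLC6A9 (26.6 ± 0.479 TPM), the kainate receptor subunit GRIK2 (21.6 ± 0.725 TPM) and the glutamate transporter SLC1A1 (21.3 ± 1.13 TPM) led. Serotonin receptors were HTR7 (16 ± 0.687 TPM), HTR2A (4.29 ± 0.756 TPM) and HTR1D (4.26 ± 0.494 TPM). The AMPA receptor subunits GRIA3 and GRIA1 lay at 6.54 ± 0.67 and 0.991 ± 0.0671 TPM, and GRIA2 had 0 counts. The astrocytic glutamate receptors GRM3 and GRM5 had 0 counts as well (up to 0.114 and 0.0589 TPM).

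Of 45 channel and gap junction genes 17 were expressed (37.8%, against 60.0% of all protein-coding genes). The chloride channel proteins CLIC4 (653 ± 27.5 TPM) and CLIC1 (547 ± 20.7 TPM) led, followed by GJA1, the mechanosensitive channel PIEZO1 (69.4 ± 1.63 TPM), the scramblase ANO6 (59.3 ± 3.65 TPM) and PANX1 (42 ± 3.17 TPM). The potassium channel of astrocytes, KCNJ10, stood at 0.0648 TPM, and GJA4, GJB6 and GJD2 had 0 counts (up to 0.297, 0.155 and 0.176 TPM). Of the connexins GJA1 and GJC1 (19.4 ± 1.42 TPM) were expressed.

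Of 48 nuclear receptors 24 were expressed (50%, against 60.0% of all protein-coding genes). The clock repressor NR1D1 led with 110.4 ± 2.29 TPM, followed by NR2F1 (98.9 ± 4.19 TPM), PPARD (83.4 ± 1.01 TPM), the glucocorticoid receptor NR3C1 (75.7 ± 5.08 TPM), the retinoic acid receptor RARA (68.3 ± 1.7 TPM) and NR2F2 (65.4 ± 3.57 TPM). The steroid hormone receptors ESR1 and PGR lay under the threshold at 0.136 and 0.0831 TPM. NR0B2, NR1H4, NR5A1 and HNF4A, receptors of liver and endocrine tissue, had 0 counts (up to 0.441, 0.141, 0.149 and 0.0697 TPM).

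Of 20 SOX genes 6 were expressed (30%, against 60.0% of all protein-coding genes). They were SOX9, SOX4, SOX7 (23.8 ± 1.16 TPM), SOX12 (19.2 ± 0.43 TPM), SOX13 (10.9 ± 0.202 TPM) and SOX15 (1.31 ± 0.106 TPM). SOX9 was the only member of its own subgroup (SOX8, SOX9 and SOX10) above the threshold, with SOX8 at 0.0696 and SOX10 at 0.000833 TPM. SOX21, SOX6 and SOX11, genes of the neural lineage, lay at 0.0204, 0.0136 and 0.00591 TPM.

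HOX genes, which specify position along the body axis and are silent in the forebrain, were expressed in all 4 clusters: 31 of 39 (79.5%). HOXC10 was the highest (41.9, 41.9 and 37.4 TPM), followed by HOXC13 (24.9 ± 0.802 TPM), HOXB7 (24 ± 1.09 TPM), HOXB3 (23.6 ± 0.645 TPM), HOXA9 (22.5 ± 0.601 TPM) and HOXB4 (19.6 ± 0.373 TPM). By cluster, 9 of 11 HOXA, 9 of 10 HOXB, 7 of 9 HOXC and 6 of 9 HOXD genes were expressed. HOXB1 and HOXD12 had 0 counts (up to 0.206 and 0.379 TPM), and HOXC12 and HOXD1 lay at 0.0155 and 0.155 TPM. Low members such as HOXD13 (1.93, 1.16 and 1.37 TPM) and HOXD4 (1.94, 3.14 and 2.11 TPM) varied between libraries on few counts.

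**Figure D4:**
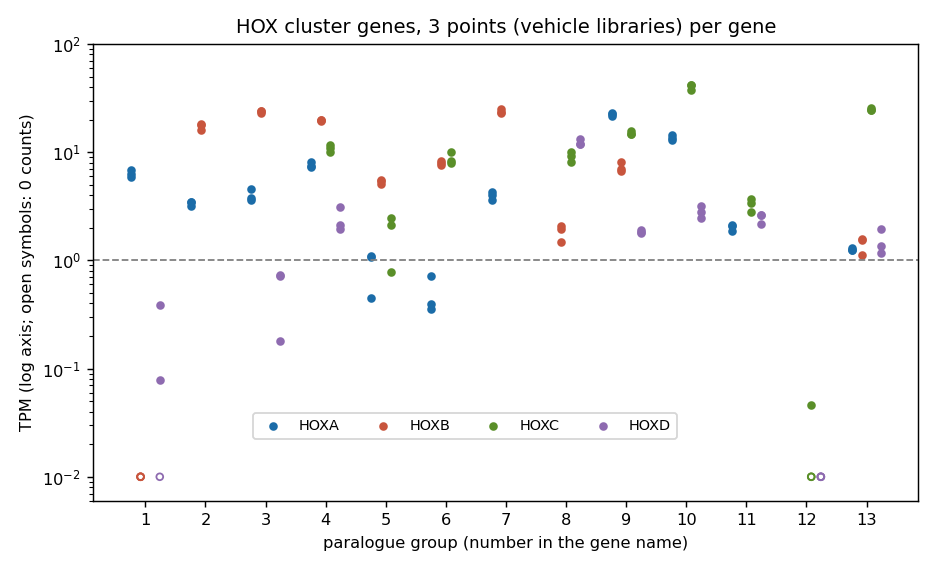
TPM of the 39 HOX cluster genes by paralogue group, on a log axis, with 3 points per gene for the vehicle libraries, colours for the clusters, open symbols for 0 counts and a dashed line at 1 TPM. Genes of early and late groups are expressed side by side, with HOXC10 at the top and HOXB1 and HOXD12 at 0.

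Of 27 regional factors of the brain 14 were expressed (51.9%, against 60.0% of all protein-coding genes). By mean level 6 of them reached 10 TPM, and 1 of these, not named here, reached 100 TPM. Below that gene, PBX3 (22.8 ± 0.663 TPM), DLX2 (19 ± 1.3 TPM), MEIS2 (15.3 ± 0.326 TPM) and DLX1 (14.9 ± 1.12 TPM) were among the higher ones. DLX2 and DLX1 are factors of the ventral forebrain. Several forebrain and midbrain factors were missing, with 0 counts for OTX2, NKX2-1 and PAX2 (up to 0.156, 0.161 and 0.0817 TPM) and EMX1 and EMX2 at 0.0185 and 0.0473 TPM. DLX transcripts were thus measured in the same libraries as HOX transcripts, and whether the same cells hold both cannot be told from bulk RNA.

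Of 32 genes often altered in glioma 27 were expressed (84.4%, against 60.0% of all protein-coding genes). MET was the highest, followed by CDKN2A (165, 163 and 156 TPM), which encodes p16 and p14ARF, the cyclin CCND1 (133 ± 14.4 TPM), CDK4 (118 ± 2.74 TPM), IDH2 (114 ± 6.98 TPM) and EGFR. The neighbours of CDKN2A that are often deleted with it, CDKN2B (22.4 ± 1.3 TPM) and MTAP (22 ± 0.545 TPM), were expressed too. RB1, the retinoblastoma tumour suppressor, stood at 2.47, 2.54 and 2.79 TPM. The DNA repair gene MGMT lay under the threshold at 0.435, 0.345 and 0.43 TPM, and the telomerase gene TERT straddled it at 0.941, 1.07 and 0.886 TPM. Of the D cyclins, CCND2 had 3 counts in all, against 133 and 45.8 TPM for CCND1 and CCND3. MYC stood at 65.5 ± 1.24 TPM, while MYCN had 0 counts (up to 0.196 TPM). RNA levels do not show mutations, and none was analysed here.

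A block of neighbouring genes on chromosome 4 stood apart by its levels. PAICS and SRP72, a subunit of the signal recognition particle, lie next to each other and ranked 39 and 46 among protein-coding genes. PAICS reached 1437, 1392 and 1448 TPM. SRP72 reached 1196, 1201 and 1249 TPM. Several neighbours were high as well: POLR2B (823 ± 22.3 TPM, rank 72), a subunit of RNA polymerase II, CLOCK (431 ± 48.7 TPM, rank 181), a transcription factor of the circadian clock, the exocyst gene EXOC1 (305 ± 6.9 TPM), TMEM165 (303 ± 12 TPM), PPAT (215 ± 6.29 TPM) and NOA1 (199.5 ± 7.97 TPM). IGFBP7, at the distal end of the block, reached 2345, 2301 and 2028 TPM. Genes with low or middling levels lay between them, such as ARL9 (4.25 ± 0.531 TPM), THEGL (13.3 ± 0.825 TPM), HOPX (31.9 ± 2.48 TPM) and REST (34.2 ± 2.98 TPM). From SRD5A3 to IGFBP7 (chromosome 4, 55346109 to 57110385, GRCh38 with GENCODE 29), a stretch of 1.76 Mb, 17 of 21 protein-coding genes were expressed and 11 of them reached 100 TPM, against 9.74% of all expressed protein-coding genes. Their median was 199.5 TPM, against 18.9 TPM over all expressed protein-coding genes, and they held 1.29, 1.29 and 1.30% of the counts of the libraries. This block was chosen after its values were seen.

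Windows of 9 neighbouring expressed genes were laid over chromosomes 1 to 22 and X to place the block. Of 11598 windows, the 5 with the highest median TPM all lay in it, with 303 TPM for the window from TMEM165 to SRP72. Neighbouring windows share genes, and the limits of the block are the outer limits of these 5 windows. That they lay in it is therefore no separate support for the block. The median of all windows was 19.1 TPM, and 99% of them lay below 78.5 TPM. The sixth window, at 192.8 TPM, lay on chromosome X. The receptor genes KIT, PDGFRA and KDR, which lie just proximal of the block and are known glioma oncogenes, stood at 28.9 ± 1.47, 5.95 ± 0.174 and 15.4 ± 1.25 TPM and did not reach 100 TPM, while CHIC2, proximal of PDGFRA, stood at 218 ± 2.71 TPM. DNA copy number was not analysed here.

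**Figure D5:**
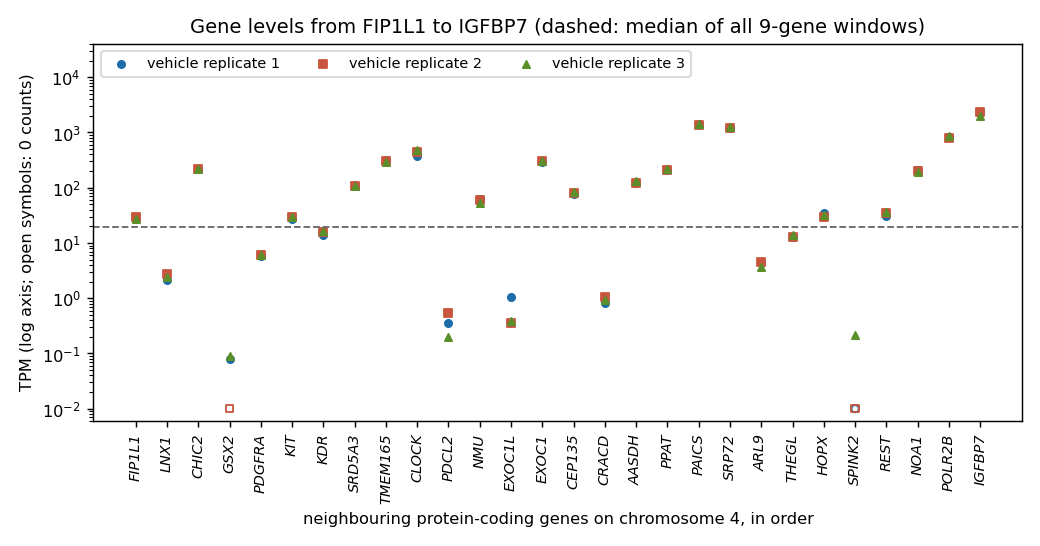
TPM of neighbouring protein-coding genes on chromosome 4 in their order from FIP1L1 to IGFBP7, on a log axis, with a symbol per vehicle library, open symbols for 0 counts and the median of all windows of 9 genes (19.1 TPM) as a dashed line. From SRD5A3 on most genes lie above the line in all 3 libraries, up to PAICS, SRP72 and IGFBP7, while PDGFRA lies below it and KIT and KDR near it.

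The glycolytic chain was highly expressed. Of 45 genes of glucose transport and glycolysis 31 were expressed (68.9%, against 60.0% of all protein-coding genes). Those not expressed were mostly tissue isoforms. GAPDH (4303, 4051 and 4059.6 TPM), ENO1 (1502 ± 86.8 TPM), PKM (1217 ± 20.5 TPM), ALDOA (1208 ± 57.9 TPM), LDHA (893 ± 36.2 TPM) and TPI1 (816 ± 61.6 TPM) were the highest. LDHA exceeded LDHB (288, 282 and 270.5 TPM) in every library. Among hexokinases HK1 (161 ± 1.14 TPM) exceeded HK2 (27.9 ± 1.35 TPM), and HK3, the hexokinase of blood cells, lay at 0.0172 TPM. The glucose transporter SLC2A1 stood at 128 ± 6.05 TPM, above SLC2A3 (17.5 ± 0.326 TPM). SLC2A14, GAPDHS and PGK2 had 0 counts (up to 0.0915, 0.336 and 0.308 TPM). Genes such as GAPDH and ENO1 have many processed pseudogenes, and reads shared with them were divided by the authors' counting.

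Enzymes that bring galactose into glycolysis were expressed. GALK1, the kinase, stood at 18.3, 15 and 17.5 TPM. GALT, the uridyltransferase, stood at 8.73, 7.91 and 7.17 TPM and the mutarotase GALM at 6.15, 6.32 and 5.97 TPM. GALK1 lay above GALT and GALM in every library. Of 17 genes of galactose use and the pentose phosphate pathway 16 were expressed (94.1%, against 60.0% of all protein-coding genes). The pentose phosphate genes PGD (209 ± 1.84 TPM), TKT (153 ± 2.67 TPM) and TALDO1 (88.5 ± 5.06 TPM) stood above the phosphoglucomutase PGM1 (59.8 ± 1.21 TPM) and UGP2 (55.1 ± 0.317 TPM), and TKTL1 lay at 0.0141 TPM.

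Of 19 genes of gluconeogenesis, glycogen and fructose use 11 were expressed (57.9%, close to the 60.0% of all protein-coding genes). Glycogen enzymes were present, with the phosphorylases PYGB (144 ± 4.99 TPM) and PYGL (76.4 ± 2.43 TPM), the synthase GYS1 (91.5 ± 1.81 TPM) and the branching enzyme GBE1 (47.2 ± 2.33 TPM), beside AKR1B1 (174 ± 10.0 TPM) and G6PC3 (106 ± 2.94 TPM). Several enzymes of gluconeogenesis were not: PCK1, FBP2, G6PC1 and G6PC2 had 0 counts (up to 0.0748, 0.391, 0.155 and 0.163 TPM) and FBP1 lay at 0.059 TPM. Of the G6PC genes named here only G6PC3, given above, was expressed.

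Of 33 genes of the tricarboxylic acid cycle and its entry 31 were expressed (93.9%), with a median of 39.6 TPM. ACLY (266 ± 2.12 TPM), MDH2 (228 ± 6.31 TPM), CS (131 ± 2 TPM), IDH2, IDH3G (112 ± 8.16 TPM) and FH (106 ± 4.25 TPM) led. IDH2 exceeded IDH1 (28.6, 27 and 27.6 TPM) in every library. The testis gene PDHA2 had 0 counts (up to 0.35 TPM) and the kinase PDK4, which rises with fasting in other tissues, stood at 0.497 TPM.

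All 13 mitochondrially encoded protein genes were expressed. MT-CO2 (57379, 60700.1 and 58752 TPM) and MT-CO1 (48273, 47985 and 48964 TPM) were the highest on the length-corrected scale and MT-ND6, the only one transcribed from the light strand, was the lowest (6880.1, 6022 and 5781 TPM). MT-ATP6 (38135 ± 1285 TPM) and MT-ND4 (38133 ± 1419 TPM) had overlapping values, followed by MT-CO3 (33864 ± 1339 TPM) and MT-ND1 (24977 ± 2103 TPM). Nuclear copies of mitochondrial DNA can share these reads.

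Of 40 genes of amino acid use 30 were expressed (75%). The glutamine transporter SLC1A5 (289 ± 6.2 TPM), SLC38A2 (180.5 ± 11 TPM), glutamate dehydrogenase, GLUD1 (147 ± 2.86 TPM), the leucine transporter SLC7A5 (140.3 ± 1.61 TPM), GOT2 (121 ± 6.53 TPM) and ALDH18A1 (103 ± 2.12 TPM) led. GLS2, a glutaminase, had 0 counts (up to 0.123 TPM). The serine synthesis enzymes were uneven, with PSAT1 (95.9, 95.3 and 91.7 TPM) above PSPH (25.6, 23.8 and 22.9 TPM) and PHGDH (11.5, 11.1 and 10.9 TPM) in every library. The urea cycle enzyme OTC had 0 counts (up to 0.295 TPM), and PRODH and ARG1 stood at 0.00755 and 0.104 TPM.

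Of 48 sterol and fatty acid genes 36 were expressed (75%). The elongases ELOVL5 (239 ± 6.41 TPM) and ELOVL1 (166 ± 8.79 TPM), the desaturase SCD (154 ± 9.06 TPM), ACADVL (143 ± 9.77 TPM), PLIN3 (108 ± 7.74 TPM) and fatty acid synthase, FASN (106 ± 4.68 TPM), led. Genes of cholesterol synthesis were expressed together. CYP51A1 (100.4 TPM), FDFT1 (55.7 TPM), SQLE (47.3 TPM), SREBF2 (40.9 TPM) and FDPS (40.4 TPM) were the higher ones. DHCR7, HMGCS1, LSS and IDI1 lay between 25.2 and 26.5 TPM. The fatty acid binding proteins FABP4 and FABP7 had 0 counts (up to 0.365 and 0.187 TPM), and PLIN1 lay at 0.0703 TPM.

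Of 43 genes of foreign compound handling 28 were expressed (65.1%, against 60.0% of all protein-coding genes). The retinal dehydrogenase ALDH1A3, a marker of mesenchymal glioma stem cells, led with 317, 306 and 317 TPM, while ALDH1A1 lay at 0.0181 TPM. GSTP1 (216 ± 17.3 TPM), AKR1B1, the quinone reductase NQO1 (145 ± 4.24 TPM), the epoxide hydrolase EPHX1 (133 ± 8.56 TPM) and the drug exporter ABCC1 (72 ± 5.42 TPM) followed. CYP1B1 (63.2 ± 5.29 TPM) was the highest cytochrome P450 gene of this list, and CYP1A1 lay under the threshold at 0.745 TPM. CYP1A2, CYP2B6 and GSTA1, genes of the liver, had 0 counts (up to 0.187, 0.135 and 0.5 TPM).

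Over all lists above, 723 of 1219 distinct genes were expressed, against 11810 of 19693 protein-coding genes (60.0%). Of the same 1219 genes 136 had 0 counts, against 3482 of 19693 (17.7%). The libraries differed little. The median biological coefficient of variation, the spread between libraries beyond counting error, was 0.0498 over 14575 genes. Of 9437 expressed protein-coding genes with a mean of at least 10 CPM the ratio of the highest to the lowest library had a median of 1.09 and a 95th percentile of 1.24, and 13 genes exceeded 1.5. The 10 largest ratios were those of RGPD5 (12.5, 12.5 and 5.2 CPM), TICAM2 (15.1, 8.99 and 18.9 CPM), SLX1A (11, 13.3 and 6.8 CPM), NBEAL1 (12.4, 16.8 and 20.9 CPM), ZBED6 (14.2, 19.8 and 22.5 CPM), REL (13, 16.5 and 20.6 CPM), TMED7-TICAM2 (23.5, 27.9 and 17.8 CPM) and 3 genes without a symbol. RGPD5 and SLX1A have near copies in the genome, and TICAM2 shares exons with the readthrough gene TMED7-TICAM2, so their values depend on how shared reads were divided. NBEAL1, ZBED6 and REL, whose exonic lengths are long, were lowest in replicate 1 and highest in replicate 3. Exons of another gene on the same strand cover 96.0% of ZBED6 and 43.3% of REL. Among the 6 marker genes SOX9 had the largest ratio, 1.16, and VIM the smallest, 1.01.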

How the data were processed

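RNA was sequenced as 100 bp paired-end reads from strand-specific libraries, per the labels' protocols. The deposited values are expected counts per Ensembl gene, made by the authors with Trim Galore 0.6.5, STAR 2.7.3a and RSEM 1.3.3 on hg38, per the submitters' processing notes. No source used here gives the annotation release or the strand setting. Such counts divide reads that match several genes, and 9.92% of the values in the 3 vehicle libraries had a fractional part, with no tolerance allowed.

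Of 60675 genes 57055 were matched to GENCODE 29, and the other genes held 0.0331% of the counts. Counts as deposited were divided by the length of the union of annotated exons and scaled to TPM. CPM used the total count. Of 1293 listed genes 448 have an exon that overlaps an exon annotated on the opposite strand. Dispersions were estimated with edgeR 4.0.16 (R 4.3.3) on rounded counts without a contrast. In counts simulated for 57055 genes, 99 of 100 genes set to 2 TPM and 0 of 100 set to 0.5 TPM were called expressed.

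The genes to be named were the 6 markers, the 20 highest by CPM, the 10 with the largest ratio between libraries, 15 textbook genes of glioma and, in each list, up to 6 of the highest expressed and up to 4 with 0 counts or the lowest levels. Some genes that this rule names are not reported here. Other genes were named for their role with their values known. The members and lists were chosen with earlier results of these data known. The mean of 3 libraries of about 20 M counts limits precision for genes below 1 TPM. Other scalings, gene lengths, thresholds and left-out libraries were tried as alternatives.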

Additional observations from a re-analysis of the deposited data

How the results depend on the processing

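The counts of expressed genes depended little on the processing. Under every alternative tried the number of protein-coding genes expressed and the number of list members expressed stayed within 1.5 times the values given, including TMM factors, DESeq2 1.42.0 size factors, other gene lengths, thresholds of 0.5 and 2 TPM and each library left out. Of 44 lists the count of expressed members moved by more than 1.5 times for 3: endothelial genes (4 at 0.5 TPM), epithelial genes (3 at 2 TPM) and type A and C MAGE genes (8 at 0.5 TPM, and 8 with mitochondrially encoded genes left out of the total). The number of protein-coding genes with 0 counts was 4701 with fewer than 3 counts over the libraries as the limit and 3818 to 3841 with each library left out. The share of the 100 highest genes was 18.8% with mitochondrially encoded genes left out. The median biological coefficient of variation was 0.135 without the filter on low counts, 0.0498 with DESeq2's size factors, 0.0500 with total counts, and 0.0373 to 0.0623 with each library left out, lowest without replicate 1 and highest without replicate 2. Of 37 named levels, 26 moved by more than 1 SD with the longest transcript as length, 31 with the median transcript, 34 with CPM in place of TPM and 32, all higher, without mitochondrially encoded genes in the total, so TPM values are tied to the length and total used. No paired analysis was possible because a single group was described and no groups were compared.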

Other observations

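The 4 lists below were drawn up after levels had been seen. Antigen presentation genes of class I were expressed strongly and those of class II weakly. Of 24 such genes 18 were expressed (75%, against 60.0% of all protein-coding genes). HLA-C (457, 421 and 402 TPM), HLA-B (320.1, 274 and 279 TPM) and B2M (276 ± 19 TPM), the light chain of class I molecules, were among the highest, and HLA-B and HLA-C were each highest in replicate 1. The peptide transporter genes TAP2 (58.6 ± 2.94 TPM) and TAP1 (43.2 ± 3.51 TPM) and the regulator NLRC5 (6.9 ± 0.399 TPM) were present. HLA-DRA stood at 7.37, 6.95 and 8.5 TPM and the class II regulator CIITA at 1.92 ± 0.132 TPM. Reads of HLA genes are shared between members, so single values are uncertain. Of 20 checkpoint and stress ligands 16 were expressed (80%, against 60.0% of all protein-coding genes). The highest were NT5E (117 ± 5.04 TPM), which makes adenosine, PVR (111 ± 2.59 TPM), ULBP2 (109 ± 7.53 TPM) and CD276 (89.9 ± 2.16 TPM). The ligands of PD-1, CD274 and PDCD1LG2, stood at 3.82 ± 0.355 and 12.2 ± 0.761 TPM, and VTCN1 had 0 counts (up to 0.168 TPM).

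Of 17 long noncoding RNAs 14 were expressed, led by MALAT1 (291 ± 33.3 TPM), NORAD (203 ± 7.54 TPM), SNHG29 (183 ± 7.34 TPM) and MEG3 (99.8 ± 1.03 TPM), the imprinted RNA of the DLK1 locus, which is often silenced in glioma. The share over all noncoding genes was not computed, so this count has nothing to be set against. H19 stood at 0.0885 TPM. HOTAIR, which lies in the HOXC cluster, stood at 1.78, 1.65 and 1.5 TPM and HOTTIP, at the end of the HOXA cluster, at 0.0304, 0 and 0.0668 TPM. Of 13 type A and C MAGE genes, which are normally germ line genes, 5 were expressed (38.5%, against 60.0% of all protein-coding genes). The highest were MAGEA3 (29.3, 26.2 and 31.1 TPM), MAGEA12 (22.9, 20.0 and 17.9 TPM), MAGEA6 (21.8, 18.1 and 17.4 TPM) and MAGEC2 (7.61, 6.16 and 5.89 TPM). MAGEA3 and MAGEA6 are near copies, and the division of reads between them is uncertain.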
